A study of Rattus norvegicus with 12 samples.

Results

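The genes described here are 6 that serve the elongation step of protein synthesis: Eef1a1, Eef1a2, Eef1d, Eef2, Eef2k and Eef1akmt1. They are all genes of 3939 with a single symbol that carry these symbols in the platform annotation, and each is read by 1 probe of the 7200 on the array. Rats labelled LPS 6 h (rats 2, 4 and 6) and LPS 2 h (rats 1, 2 and 3) received lipopolysaccharide (LPS), a bacterial outer membrane molecule that triggers innate immunity. The total RNA of each rat was hybridised on 2-colour arrays against a control pool of the same time, once in each dye arrangement, on arrays called fluor and flip. The control pool is 1 sample per time, so its own spread is unknown. The sources used here give no strain, age, sex or LPS dose, and do not say how the animals of the control pool were treated. The title of the series gives blood as the tissue. These are ratios within an array, so they cannot show whether a blood cell marker was present at all.

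Elongation adds amino acids to a growing protein one at a time. The factor eEF1A brings each aminoacyl-tRNA to the ribosome as a complex with GTP, the eEF1B complex (to which Eef1d contributes the delta subunit) reloads eEF1A with GTP, and eEF2 moves the ribosome along by one codon. Most tissues use the eEF1A made from Eef1a1, while Eef1a2 encodes a close paralog best known from neurons, heart and skeletal muscle. Eef2k encodes the calcium and calmodulin dependent kinase that phosphorylates eEF2 and so slows elongation, and Eef1akmt1 encodes a lysine methyltransferase of eEF1A. Messenger RNAs of the factors themselves and of ribosomal proteins usually begin with a terminal oligopyrimidine (TOP) tract, a C followed by a run of pyrimidines that lets mTOR signalling control their translation.

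Each value is a log2 ratio, read as LPS over control pool. That direction is likely and not settled, since no source used here states which dye is the numerator. It rests on 8 genes that LPS is known to raise. Of these, Zfp36, Lcn2, Irf1, Il1r2 and Il1b had a positive deposited ratio on each of the 12 arrays in either dye arrangement, but Sod2 on 10, Tnf on 8 and Nfkbia on 3. Il1b, which encodes interleukin-1 beta, averaged 2.05 ± 0.13 at 6 h and 3.90 ± 0.31 at 2 h (SD, n = 3 rats each). Pearson's r over all probes, between the 2 arrays of 1 rat, lay between -0.23 and 0.25 in the 6 rats. Each rat's 2 arrays were averaged, so that rats are the replicates. All rats of a time share 1 control pool, so the p-values measure the spread between these samples and leave out that of the pool. A deviation of the pool would shift all ratios of its time alike. The labels do not say whether rat 2 at the 2 times is 1 animal, and it was treated as 2 samples. Changes were tested with limma over all 3939 genes, with Benjamini-Hochberg adjusted p under 0.05 as the threshold.

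Promoter sequence is shown for the 4 genes that passed this threshold at either time. Those that fell and those that rose can then be compared at the annotated start of transcription. A TOP tract would lie there if that start is the one used. The windows come from RefSeq on the build GRCr8 and hold 60 bases before the annotated start and the 20 bases from it on. Capitals mark 2 searched features. The first is a TATA motif, TATAAA or TATATA on either strand in the 50 bases before the start. The second is a TOP-like run, a C followed by at least 4 bases that are each C or T, on the coding strand, whose first base lies within 5 bases of the start.
Eef1a1 (chr8:88225050-88225129, minus strand): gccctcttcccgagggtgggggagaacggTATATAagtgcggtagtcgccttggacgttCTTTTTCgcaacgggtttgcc
Eef2 (chr7:9189219-9189298, minus strand): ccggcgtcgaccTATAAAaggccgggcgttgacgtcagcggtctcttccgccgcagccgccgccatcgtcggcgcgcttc
Eef2k (chr1:184824360-184824439, plus strand): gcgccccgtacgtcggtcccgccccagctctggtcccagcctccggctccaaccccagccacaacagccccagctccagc
Eef1a2 (chr3:188652614-188652693, minus strand): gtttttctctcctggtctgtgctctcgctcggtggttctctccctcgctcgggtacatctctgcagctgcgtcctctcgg

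Eef1a1 and Eef2, the pair that fell, each held a TATA motif, which began 31 bases before the annotated start in Eef1a1 (TATATA, which reads the same on either strand) and 48 bases before it in Eef2. Such a motif stood in 4.26% of the 27456 rat promoters searched, and in 6 of 38 promoters of the measured ribosomal protein genes (15.8%). The annotated start of either gene lies inside its gene record, 619 bases from the upstream end in Eef1a1 and 7017 bases in Eef2, whereas the starts of Eef2k, Eef1a2 and Eef1akmt1 are the ends of theirs. Eef1a1 also had a TOP-like run of 7 bases that began 1 base before the annotated start. Such a run was found in 15.6% of all promoters on the coding strand and in 19.9% on the other strand, and in 23 of the 38 ribosomal protein promoters on the coding strand (60.5%). Eef2, Eef2k and Eef1a2 had no such run whose first base lay within 5 bases of the annotated start. Runs that begin farther away, which the printed windows of these genes also hold, were not counted. In Eef2 such a run, ctcttcc, lies between the TATA motif and the annotated start. The lack of a counted run in Eef2 thus depends on where its start is annotated. Eef1akmt1, whose ratios stayed near 0, had a counted run of 12 bases. The search holds only for the annotated starts, and the TATA motif of Eef2 lay farther from its start than that of Eef1a1. The genes shown were also picked by their change. The search therefore cannot show whether TATA motifs or such runs follow the direction of change. The table gave promoters for 5 of the 6 genes.

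Of the 6 genes, 2 fell and 2 rose at 6 h, and 2 fell and 1 rose at 2 h. Eef1a1 and Eef2, which encode the factors that carry tRNA and move the ribosome, fell at both times to between 46.2% and 64.6% of the control pool. Eef2k rose at 6 h and Eef1a2 at both times, by 1.41-fold or less. Eef1d and Eef1akmt1 passed the threshold at neither time. Over all genes 19.0% passed at 6 h (8.30% higher and 10.7% lower) and 19.2% at 2 h (9.34% higher and 9.82% lower), so a call as such was not rare on these arrays. In blood, fewer cells of a type and less RNA per cell cannot be told apart.

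**Figure D1:**
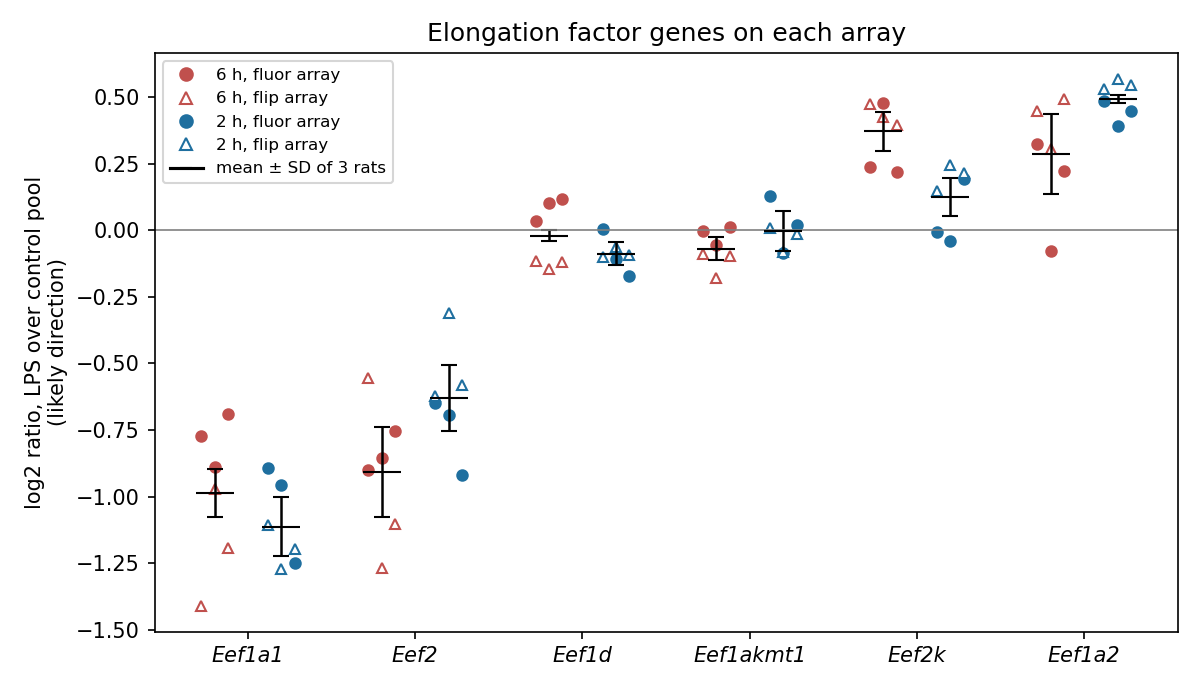
Log2 ratio of LPS over control pool (vertical axis) for each gene on each array, with 6 h in red left of 2 h in blue, filled circles for fluor arrays, open triangles for flip arrays, and black bars for the mean ± SD of 3 rats. Eef1a1 and Eef2 lie below 0 on all 12 arrays, Eef1d and Eef1akmt1 scatter around 0, and Eef2k and Eef1a2 lie above 0 on most arrays.

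Eef1a1 had the deepest fall of the 6 genes. On the fluor and flip arrays at 6 h it stood at -0.77 and -1.41 in rat 2, at -0.89 and -0.97 in rat 4, and at -0.69 and -1.19 in rat 6. At 2 h it stood at -0.89 and -1.11 in rat 1, at -0.96 and -1.27 in rat 2, and at -1.25 and -1.20 in rat 3. Every array was thus below 0, as was the case for 6.37% of all genes, and the rats of the 2 times overlapped. The mean was -0.99 ± 0.09 at 6 h (50.4% of the pool, limma adjusted p = 8.4e-05) and -1.11 ± 0.11 at 2 h (46.2% of the pool, limma adjusted p = 7.0e-05). In the order of all genes from the lowest mean it was number 9 at 6 h and number 4 at 2 h. The fluor array was the higher one in 5 of 6 rats, and the gap between the 2 arrays of a rat had a median of 0.26 against 0.14 for the typical gene.

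Eef2, the translocase gene, fell next to it. At 6 h its fluor and flip values were -0.90 and -0.56 in rat 2, -0.86 and -1.27 in rat 4, and -0.75 and -1.10 in rat 6. At 2 h they were -0.65 and -0.62 in rat 1, -0.69 and -0.31 in rat 2, and -0.92 and -0.58 in rat 3. All 12 arrays lay below 0, and the lowest rats at 2 h overlapped the highest at 6 h. The means were -0.91 ± 0.17 at 6 h (53.3% of the pool, limma adjusted p = 0.000311) and -0.63 ± 0.12 at 2 h (64.6% of the pool, limma adjusted p = 0.0017). From the lowest mean upwards, Eef2 was number 13 at 6 h and number 39 at 2 h. At 2 h its call ended on the flip arrays alone (-0.51, limma adjusted p = 0.0539). Its median gap between the arrays of a rat, 0.35, was the widest of the 6 genes, so its size is less well fixed than that of Eef1a1. Eef1a1 and Eef2 were past the threshold below 0 at both times, which held for 6.47% of all genes.

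Eef1a2, the paralog of Eef1a1, moved the other way. At 6 h it stood at 0.32 and 0.45 in rat 2, at -0.08 and 0.30 in rat 4 and at 0.22 and 0.49 in rat 6, on fluor and flip arrays in turn. At 2 h it stood at 0.48 and 0.53 in rat 1, at 0.39 and 0.57 in rat 2 and at 0.45 and 0.54 in rat 3. The 2 h rats were close together and all above the 6 h rats, among which rat 4 was the low one. A lack of overlap, in either direction, held for 21.7% of all genes. For Eef1a2 the flip array was the higher one in all 6 rats. The means were 0.29 ± 0.15 at 6 h (1.22-fold, limma adjusted p = 0.0117) and 0.49 ± 0.01 at 2 h (1.41-fold, limma adjusted p = 0.00161). Of all genes 3.40% were past the threshold above 0 at both times. The 6 h call ended on the fluor arrays alone (0.16, limma adjusted p = 0.148), with a trended and robust variance (limma adjusted p = 0.0535), without rat 2 (0.24, limma adjusted p = 0.0814) and without rat 6 (0.25, limma adjusted p = 0.0673). Eef1a1 and Eef1a2 are similar in coding sequence, and whether either probe also bound the other transcript was not tested.

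Eef2k, the kinase that restrains eEF2, was higher at 6 h. There it stood at 0.24 and 0.47 in rat 2, at 0.48 and 0.43 in rat 4 and at 0.22 and 0.40 in rat 6, all 6 arrays above 0. At 2 h it stood at -0.01 and 0.15 in rat 1, at -0.04 and 0.24 in rat 2 and at 0.19 and 0.21 in rat 3, so 4 of 6 arrays were above 0. Every 6 h rat was above every 2 h rat, while the rats of the 2 times did not overlap for 21.7% of all genes. The means were 0.37 ± 0.07 at 6 h (1.29-fold, limma adjusted p = 0.00132) and 0.12 ± 0.07 at 2 h (1.09-fold, limma adjusted p = 0.0715). The 2 h value passed in 4 alternatives, among them arrays scaled to one spread (0.16) and quantile normalization (0.15), with a lowest limma adjusted p of 0.0197 on the flip arrays alone (0.20), so its side of the threshold at 2 h depends on the processing.

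Eef1d, the guanine nucleotide exchange subunit, averaged -0.02 ± 0.02 at 6 h (limma adjusted p = 0.65) and -0.09 ± 0.04 at 2 h (limma adjusted p = 0.0747). At 6 h its 3 fluor arrays were above 0, between 0.04 and 0.12, and its 3 flip arrays below 0, between -0.14 and -0.12. At 2 h 5 of 6 arrays were below 0. It passed at 6 h on the flip arrays alone (-0.13, limma adjusted p = 0.0267), and at 2 h with arrays scaled to one spread (-0.095, limma adjusted p = 0.04996). Eef1akmt1, the methyltransferase gene, averaged -0.07 ± 0.04 at 6 h (limma adjusted p = 0.215) and -0.0038 ± 0.0751 at 2 h (limma adjusted p = 0.948). Its arrays ranged from -0.18 to 0.01 at 6 h and from -0.08 to 0.13 at 2 h. It too passed at 6 h on the flip arrays alone (-0.12, limma adjusted p = 0.0480).

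**Figure D2:**
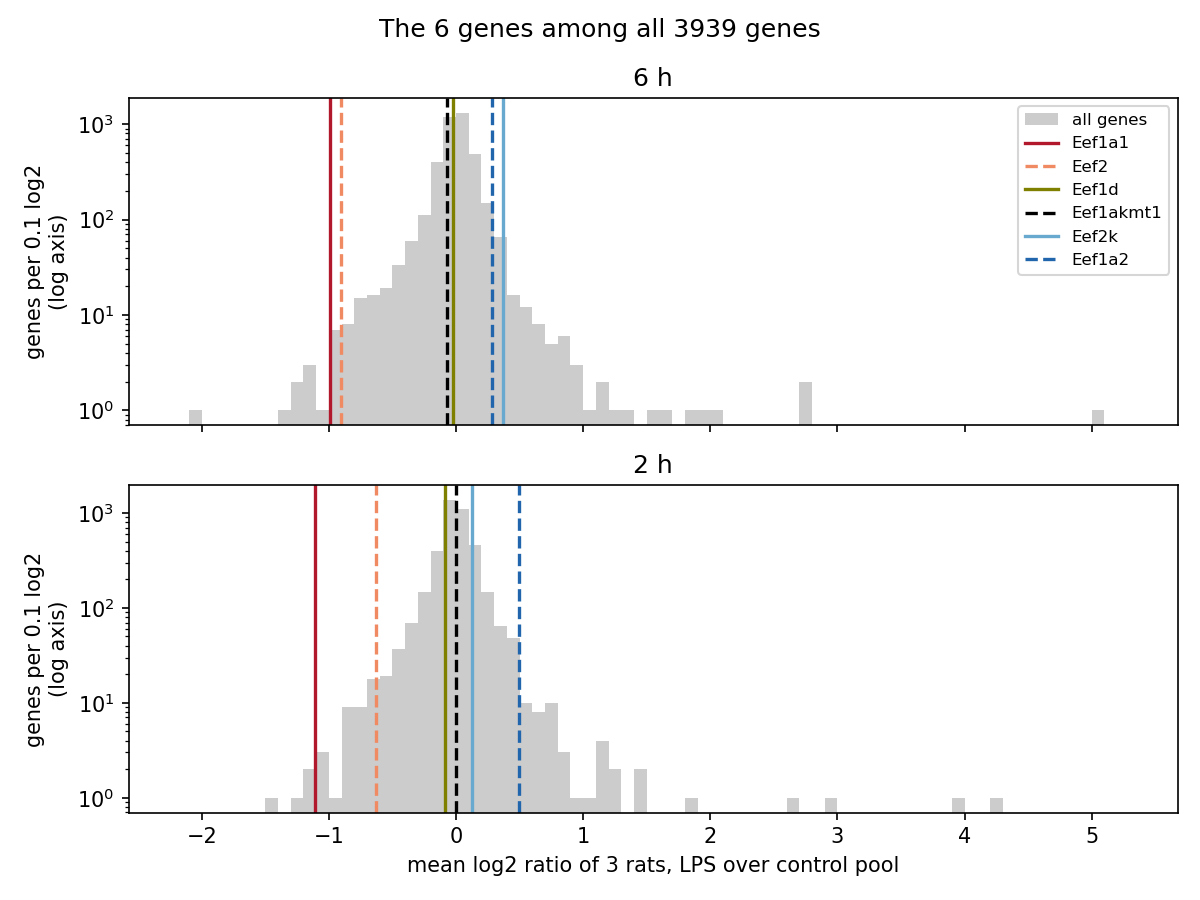
Histograms of the mean log2 ratio of 3 rats for all 3939 genes at 6 h (above) and 2 h (below), with the number of genes per 0.1 log2 on a log axis and a vertical line for each of the 6 genes. Eef1a1 and Eef2 lie in the lower tail at both times, Eef2k and Eef1a2 lie on the upper side, and Eef1d and Eef1akmt1 lie near the centre.

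The response at 6 h was compared with that at 2 h in the same fit. None of the 6 genes passed limma's threshold, as against 0.508% of all genes, while Eef2k, Eef2 and Eef1a2 had an unadjusted p under 0.05. Eef2k differed by 0.25 ± 0.06 (SE, limma adjusted p = 0.111), and Eef2 by -0.28 ± 0.10 (SE, limma adjusted p = 0.275). Eef1a2 differed by -0.21 ± 0.07 (SE, limma adjusted p = 0.278) and Eef1a1 by 0.13 ± 0.07 (SE, limma adjusted p = 0.481). Eef1d differed by 0.07 ± 0.04 (SE) and Eef1akmt1 by -0.07 ± 0.05 (SE). The rats of the 2 times did not overlap for Eef2k, Eef1a2 and Eef1d, which is 3 of 6 genes, against 21.7% of all genes. Eef2k passed with all 12 arrays fitted with a dye term (limma adjusted p = 0.0393). This comparison also holds any difference between the control pools of 6 h and 2 h.

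Whether the genes moved alike was asked within each rat, by subtracting the log2 ratio of every other gene from that of Eef1a1. The difference from Eef1a2 was -1.44 ± 0.24 (SD, n = 6 rats), from Eef2k -1.30 ± 0.15, from Eef1akmt1 -1.01 ± 0.14 and from Eef1d -0.996 ± 0.071, each below 0 in 6 of 6 rats. For these 4 the exact two-sided sign-flip permutation test over rats gave p = 0.03125, the smallest it allows with 6 rats, and 0.0391 after adjustment over 5 comparisons. The difference from Eef2 was -0.28 ± 0.28, below 0 in 5 of 6 rats (exact permutation p = 0.0938, also 0.0938 after adjustment). Eef1a1 thus lay below these 4 genes in every rat, while its difference from Eef2 did not pass over the 6 rats. The adjusted value lies under 0.05 only because 4 of the 5 comparisons reached that smallest p. The differences restate the ratios given above for each gene. The genes were chosen with earlier results known, and the rats of a time share 1 control pool. These p-values are therefore descriptions. With any 1 rat left out the test cannot go below 0.0625. At 6 h the differences from Eef2 were 0.13 in rat 4, -0.01 in rat 6 and -0.36 in rat 2, whereas at 2 h they ran from -0.61 to -0.37.

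**Figure D3:**
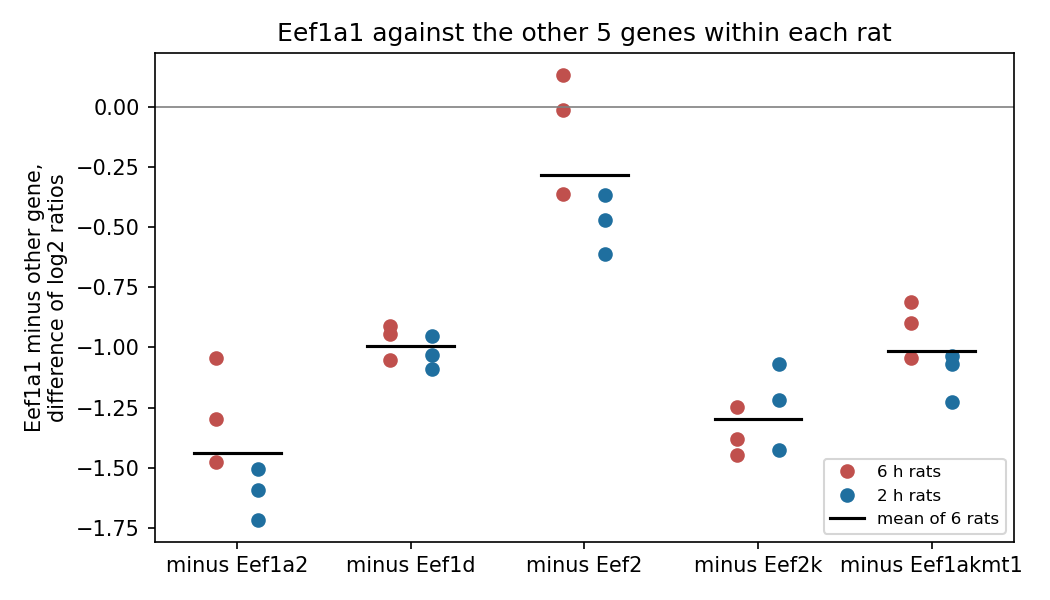
Difference of log2 ratios, Eef1a1 minus each of the other 5 genes (vertical axis), within each rat, with 6 h rats in red left of 2 h rats in blue and a black line for the mean of 6 rats. All rats lie below 0 except 1 of the 6 h rats in the comparison with Eef2.

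The sign of most of these changes depends on how the flip arrays are read, though Eef2 at 2 h stayed below 0. With their sign turned, Eef1a1 stood at 0.20 at 6 h (limma adjusted p = 0.0288) and 0.08 at 2 h, and Eef2 at 0.07 at 6 h and -0.12 at 2 h. Eef1a2 then stood at -0.13 at 6 h (limma adjusted p = 0.0162) and -0.05 at 2 h, and Eef2k at -0.06 at 6 h and -0.08 at 2 h. Eef1d stood at 0.11 at 6 h (limma adjusted p = 0.0204) and -0.0026 at 2 h, and Eef1akmt1 at 0.05 at 6 h and 0.02 at 2 h. In that reading Eef1a1, Eef1a2 and Eef1d passed at 6 h and none of the 6 at 2 h, where 0 had an unadjusted p under 0.05. By construction a response that is alike in both dye arrangements cancels in it.

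For the genes past the threshold, the named genes with the smallest root mean square difference over the 12 arrays were listed as the closest in value. This measure includes the level of a gene, so its median over all genes is large for a gene far from 0. Pearson's r over the arrays between a gene and those listed for it ran from 0.56 (Pdap1) to 0.82 (Rps13). For Eef1a1 these were Tmsb10, a thymosin that binds actin, at 0.17, Blvra, a biliverdin reductase, at 0.26 and Prkcb, a protein kinase C, at 0.26, against a median of 1.08 over all genes. For Eef2 they were the ribosomal protein gene Rps13 at 0.18, Rack1, a scaffold protein of the small ribosomal subunit, at 0.18 and Lrch1 at 0.19, against a median of 0.82. For Eef2k they were the glucose transporter gene Slc2a1 at 0.13, Sqle, a squalene epoxidase, at 0.13 and Pdap1 at 0.14, against a median of 0.33. For Eef1a2 they were Odc1, the ornithine decarboxylase of polyamine synthesis, at 0.15, Tes at 0.15 and the metallothionein Mt2A at 0.17, against a median of 0.45. The arrays share control pools and dye arrangements, so these are descriptions.

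Ribosomal protein genes, whose products and mRNAs belong to the same machinery, were mostly lower. Of 45 measured, 31 fell, 2 rose and 12 did not pass at 6 h, with a median of -0.44, and 27 fell, 2 rose and 16 did not pass at 2 h, with a median of -0.34. The median of all genes was 0.0069 at 6 h and -0.0070 at 2 h. Among them 10.7% fell at 6 h and 9.82% at 2 h. At 6 h Rpl6 averaged -0.93 ± 0.07, Rps3 -0.92 ± 0.12, Rpl4 -0.80 ± 0.04 and Rpl30 -0.77 ± 0.09, each shallower than Eef1a1 at that time. At 2 h Rps6 averaged -1.13 ± 0.23, Rpl4 -0.69 ± 0.13, Rps3 -0.63 ± 0.03 and Rpl6 -0.60 ± 0.07. At 6 h Rps6 lay deeper than Eef1a1, at -1.34 ± 0.17. At 2 h the means of Rps6 and Eef1a1 (-1.11 ± 0.11) were closer together than the SD of either. The 2 that rose were Rpl41 (0.33 ± 0.18) and Rps29 (0.19 ± 0.09) at 6 h, and Rpl36a (0.28 ± 0.08) and Rplp1 (0.27 ± 0.12) at 2 h. The list's median was below 0 in all 16 other settings at each time, and with the flip arrays turned it was 0.06 at 6 h, with 13 up and 1 down, and -0.04 at 2 h, with 2 up and 1 down.

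Other genes known for TOP mRNAs were mixed. Of 9 measured, 4 fell and 0 rose at 6 h (median -0.02), and 6 fell and 2 rose at 2 h (median -0.26). By comparison, 10.7% of all genes fell and 8.30% rose at 6 h, and 9.82% fell and 9.34% rose at 2 h. Tmsb10 averaged -1.15 ± 0.16 at 6 h and -1.07 ± 0.10 at 2 h, and Rack1 -0.90 ± 0.10 at 6 h and -0.69 ± 0.17 at 2 h. Vim, which encodes the intermediate filament vimentin, averaged -0.40 ± 0.18 at 6 h and -0.76 ± 0.14 at 2 h. Its 6 h call ended on the fluor arrays alone and without 6 h rat 6 (highest limma adjusted p = 0.0635). Hnrnpa1, an RNA-binding protein gene, fell at both times (-0.27 ± 0.05 at 6 h and -0.17 ± 0.06 at 2 h). Npm1 (-0.37 ± 0.08) and Ybx1, a cold shock domain protein gene (-0.26 ± 0.02), fell at 2 h. On the flip arrays alone the 2 h calls of Hnrnpa1, Npm1 and Ybx1 did not hold (limma adjusted p = 0.531, 0.184 and 0.0889). The 2 that rose at 2 h were Eif4b (0.42 ± 0.10), an initiation factor gene, and Tpt1 (0.31 ± 0.19). With the flip arrays turned the list had 4 up and 1 down at 6 h and 2 up and 1 down at 2 h, and its median was 0.15 at 6 h.

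Regulators of Eef2 kinase were described from a list of 23 genes, of which 10 were measured. At each time 1 of these rose and 2 fell, while 19.0% of all genes passed at 6 h and 19.2% at 2 h. Prkab1, the beta-1 subunit of AMP-activated protein kinase, which activates the kinase, rose to 0.43 ± 0.05 at 6 h (limma adjusted p = 0.000692) and 0.17 ± 0.09 at 2 h (limma adjusted p = 0.0332). Cdk1, the mitotic kinase, fell to -0.24 ± 0.06 at 6 h and -0.20 ± 0.04 at 2 h, and the stress kinase gene Mapk14 to -0.18 ± 0.03 at 6 h and -0.13 ± 0.06 at 2 h. The other 7, including the calmodulin gene Calm3 (0.10 ± 0.07 at 6 h), the S6 kinase gene Rps6kb1 (-0.04 ± 0.06 at 6 h) and the phosphatase subunit gene Ppp2ca (-0.0012 ± 0.1023 at 6 h), did not pass at either time. The list median was -0.0037 at 6 h and -0.06 at 2 h. With the flip arrays turned the list had 1 up and 0 down at 6 h, the 1 being Ppp2ca, and 0 up and 2 down at 2 h, and Prkab1 did not pass at either time. The 2 h calls of Prkab1 and Mapk14 each ended in 8 of 16 other settings (highest limma adjusted p = 0.153 for Prkab1 and 0.275 for Mapk14), among them the omission of rat 1 or rat 2 of the 2 h group or of any single 6 h rat. The 6 h call of Mapk14 ended on the flip arrays alone, without 6 h rat 2 and without 6 h rat 6, and the 2 h call of Cdk1 on the flip arrays alone and once neighbouring probes were subtracted.

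The remaining steps of the pathway showed few calls. Among all genes 19.0% passed at 6 h and 19.2% at 2 h. Of 10 measured genes for tRNA synthetases, which charge tRNAs with amino acids, and their complex, 1 of which (Aimp2) encodes a scaffold protein, limma passed 0 at either time (2 at 6 h and 1 at 2 h had an unadjusted p under 0.05), and the medians were 0.04 at 6 h and 0.0087 at 2 h. With the flip arrays turned 3 of them were up and 3 down at 6 h, and 0 passed at 2 h. Of 3 termination and recycling genes limma passed 0 at 6 h (0 at an unadjusted p under 0.05), while the release factor gene Gspt1 (0.24 ± 0.14) and the rescue factor gene Hbs1l (0.13 ± 0.07) rose at 2 h, each losing its call in 6 or more of 16 other settings. Of 3 measured enzymes that modify elongation factors, Dph1, Dph3 and Dhps, limma passed 0 at either time (1 at each time had an unadjusted p under 0.05). It passed 0 of 2 mitochondrial factors, Tufm and Gfm1 (0 at an unadjusted p under 0.05). Gfm1 averaged 0.11 ± 0.20 at 6 h and 0.09 ± 0.07 at 2 h, but was above 0 on 3 of 6 arrays at each time and passed below 0 with the flip arrays turned (-0.65 at 6 h and -0.86 at 2 h). No other cytosolic factor of the list (Eef1b2, Eef1g, Eef1e1, Eif5a, Eif5a2, Eefsec) was analysed here.

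**Figure D4:**
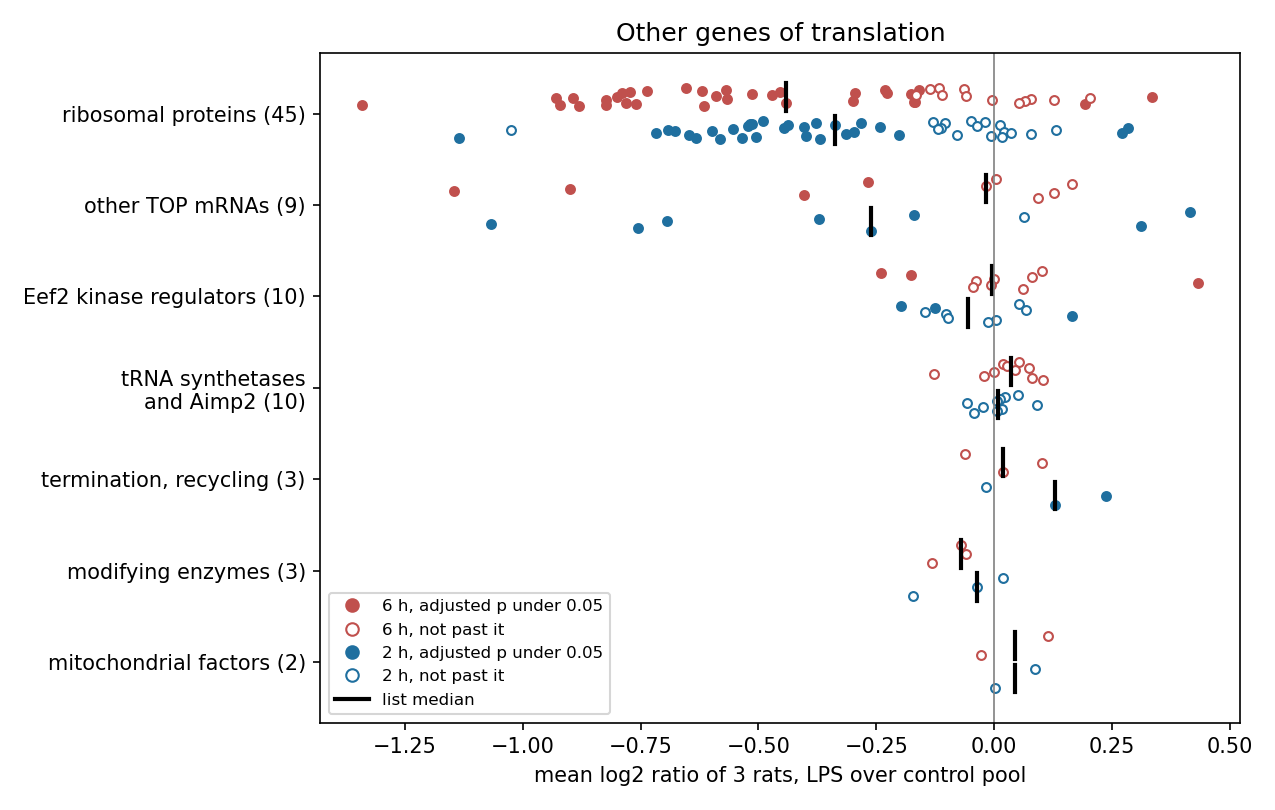
Mean log2 ratio of 3 rats (horizontal axis) for the measured genes of each list, with 6 h in red above 2 h in blue, filled points past an adjusted p of 0.05, open points not past it, and black bars for list medians. Ribosomal protein genes spread mostly below 0, with medians of -0.44 at 6 h and -0.34 at 2 h, while the genes of tRNA synthetases and Aimp2 cluster around 0.

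Markers of blood cell types moved as well, and their part in the changes of these genes was not tested. Shares over all genes were 8.30% risen and 10.7% fallen at 6 h, and 9.34% risen and 9.82% fallen at 2 h. All 5 measured T cell genes had means below 0 at both times (median -0.21 at 6 h, with rat medians from -0.35 to -0.20, and -0.23 at 2 h, with rat medians from -0.33 to -0.14), and 3 fell at 6 h and 2 at 2 h. Both measured B cell genes were below 0 (median -0.41 at 6 h and -0.29 at 2 h), 1 falling at 6 h and 2 at 2 h. Of 6 neutrophil genes 3 rose and 0 fell at 6 h (median 0.29) and 4 rose and 1 fell at 2 h (median 0.60). Lcn2 and Il1r2 rose at both times, but they are among the genes on which the direction of the ratios rests. S100a9 rose too (2.70 at 6 h and 2.98 at 2 h), while S100a8 passed at neither time (-0.05 at 6 h and -0.08 at 2 h). Of 3 monocyte and macrophage genes 2 fell at 6 h and 1 at 2 h, with medians of -0.21 at 6 h and -0.20 at 2 h. Of 10 erythroid genes 1 rose and 3 fell at 6 h (median 0.15, with rat medians from -0.0067 to 0.30). The 3 that fell were the globin genes Hba-a1 (-0.12), Hbb (-0.16) and Hbb-b1 (-0.33), and Gata1 rose (0.35). At 2 h 5 of the erythroid genes rose and 1 fell (median 0.28, with rat medians from 0.19 to 0.44). Those that rose were Alas2, Slc4a1, Car2, Gata1 and Add2, and Hba-a1 fell. With the flip arrays turned the erythroid list had 5 up and 2 down at 6 h, and 4 up and 2 down at 2 h. Of 4 NK and cytotoxic genes 2 rose at each time, and of 2 platelet genes 1 rose, at 2 h. With the flip arrays turned the T cell list had 1 down at each time and a median of -0.06 at 6 h and -0.08 at 2 h, and the neutrophil list 1 up and 1 down at 6 h and 0 at 2 h.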

How the data were processed

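The values deposited by the authors are log2 ratios between the channels, for 7200 probes on 12 arrays; the file header names no log base. Raising 2 to each value gave whole steps of 0.0001 (within 0.05 of a step, ratios below 5) for 100% of values, and the other bases tried for 12.9% at most. How background and dye effects were treated, and the spot intensities, are not given in the sources here, so no filter on dim probes was possible, and the number of arrays limits the precision. Array medians lay between -0.020 and 0.0083. On each array 242 to 298 probes held 1 repeated value, none of them a probe of the 6 genes.

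Gene symbols come from GEO's 2007 annotation, brought up to date by gene identifier through RefSeq (GRCr8). A single symbol was held by 4190 probes, several by 46 and none by 2964; the first class gave 3939 genes, with probes of 1 gene averaged. Using limma 3.58.1 in R 4.3.3, lmFit and eBayes were run on the 6 rats together (4 residual degrees of freedom), after a test on simulated data. The members and lists were chosen with earlier results of these data known. The named genes are the 6, the 3 closest in value for each that passed, and up to 4 genes per list with the lowest adjusted p at a time. Other genes whose values are given were chosen after their values were seen. Alternatives were array subsets, centring, scaling, quantile normalization, a dye term with the rat as random block, separate fits per time, another variance moderation, 4 neighbouring probes on each side subtracted, repeated values left out, single probes, and each rat left out.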

Additional observations from a re-analysis of the deposited data

Results flagged for a closer look

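Ybx1, an RNA-binding cold shock protein gene on the list of TOP mRNAs, differed between the times by limma's test of the difference itself. It averaged 0.09 ± 0.04 at 6 h and -0.26 ± 0.02 at 2 h (SD, n = 3 rats each), a difference of 0.3542 (limma adjusted p = 0.0244). At 6 h 4 of 6 arrays were above 0 and at 2 h 0 of 6. Over 15 other settings the difference ran from 0.19 to 0.52 and its adjusted p from 0.0100 to 0.332. It missed the threshold in 8 of them: the fluor or the flip arrays alone, scaling, quantile normalization, and without 2 h rat 1, 2 h rat 2, 6 h rat 2 or 6 h rat 6. None of the 6 elongation genes was past the threshold in this comparison. Groups of 3 rats are too small for a test of single outlying rats.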

How the results depend on the processing

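No paired analysis was possible because the 2 times share only rat number 2. Reading the flip arrays with the sign turned reversed Eef1a1 (0.20 at 6 h and 0.079 at 2 h), Eef1a2 (-0.13 at 6 h and -0.053 at 2 h), Eef2 at 6 h (0.0695), Eef2k at 6 h (-0.061) and Eef1d at 6 h (0.11). It also reversed Rack1 (0.21), Rpl6 (0.21), Rpl4 (0.20 at 6 h and 0.052 at 2 h), Rps3 (0.16), Tmsb10 (0.15) and Vim (0.10) at 6 h and Prkab1 at 2 h (-0.0029), and the differences of Eef1a1 from Eef1a2 (0.23), Eef2k (0.21), Eef1akmt1 (0.10) and Eef1d (0.089). That setting turns the flip arrays only, so a response alike in both dye arrangements cancels in it. On the flip arrays alone Gspt1 at 2 h stood at -0.0015. In the 17 other alternatives Eef1a1 kept its direction and call, from -1.40 to -0.74 at 6 h and from -1.90 to -0.90 at 2 h.

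The number of the 6 genes past the threshold at 2 h was 3, against 0 with the flip arrays turned and 5 with scaling. For 6 h minus 2 h it was 0, against 1 with all 12 arrays and a dye term. Genes past the threshold numbered 749 at 6 h (1461 with the flip arrays turned, 1202 on fluor arrays) and 755 at 2 h (1142 on fluor arrays, 336 on flip arrays, 500 with each time fitted alone). For 6 h minus 2 h they numbered 20, against 0 with the flip arrays turned (484 at an unadjusted p under 0.05), 4 on fluor and 5 on flip arrays, 8 after quantile normalization, 131 with all 12 arrays, 33 with a trended and robust variance and 10 with neighbouring probes subtracted. With 1 rat left out the counts ran from 306 to 927 at 6 h, from 323 to 668 at 2 h and from 2 to 31 for the difference. Left out 1 at a time, rats 2, 4 and 6 of the 6 h group gave 306, 415 and 390 genes at 6 h, and rats 1, 2 and 3 of the 2 h group 485, 323 and 461 at 2 h. For the difference they gave 2, 16 and 4 and 5, 7 and 31. The cause of these moves was not tested. Without 1 rat the difference of Eef1a1 from Eef1a2 ran from -1.52 to -1.38, from Eef1d from -1.01 to -0.98, from Eef2k from -1.34 to -1.27 and from Eef1akmt1 from -1.05 to -0.97, where 5 rats cannot reach the threshold.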
